A study of Homo sapiens with 4 samples.

Results

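The circadian clock E-box genes are 10 genes of the transcriptional loop that keeps daily time in cells, CLOCK, PER1, PER2, PER3, CRY1, CRY2, NR1D1, NR1D2, DBP and BHLHE40, out of 19702 protein-coding genes annotated in GENCODE version 44. They were taken as a named list, and peaks of c-MYC were assigned to them by position. A promoter peak had its summit, the base with the most overlapping tags, no more than 1 kb from a start site (TSS) where a protein-coding transcript begins. A wider count took every peak that touched the gene or the 10 kb on either side of it.

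Chromatin immunoprecipitation with sequencing (ChIP-seq) was performed in MIA PaCa-2, an established human pancreatic ductal adenocarcinoma cell line, to ask where c-MYC sits on DNA with and without drug treatment. Cells received the solvent DMSO, the inhibitor AMG510 at 100 nM or the MEK inhibitor trametinib at 10 nM, each for 8 h, and chromatin was immunoprecipitated with a c-MYC antibody. DMSO-treated cells also gave a control precipitated with non-specific immunoglobulin (IgG). Each of these 4 groups had 1 library from 1 cell line, so no difference between treatments has a replicate check and no test was made. Cell cycle or circadian phase was not part of the sample labels, and all cells were taken at a single treatment time.

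In the core loop, CLOCK and its partner BMAL1 bind the E-box, a short DNA motif with the sequence CACGTG, and switch on the PER and CRY genes, whose proteins return to the nucleus and block CLOCK and BMAL1. A second loop runs through NR1D1 and NR1D2, which encode the haem-binding nuclear receptors REV-ERBα and REV-ERBβ, repressors of BMAL1. DBP, an activator of promoters that carry a D-box, and BHLHE40 (also called DEC1), a repressor that binds E-boxes itself, are further targets of the same motif. The dimer of c-MYC and MAX binds CACGTG too, which is why these promoters are of interest in a c-MYC experiment.

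The lists held 2966 peaks for IgG, 9552 for c-MYC in DMSO, 10378 for c-MYC in AMG510 and 5431 for c-MYC in trametinib. They were called from an estimated 22700000 to 24800000 tags per library. A tag is a single aligned read counted by the peak caller. Tags at the summit were recovered from the deposited statistics, and the median peak held 10, 13, 11 and 12 tags in that order, so most peaks in all of the lists were shallow. Intervals on tags below are exact 95% Poisson intervals and cover counting error only. They are too narrow, because both reads of a fragment can count as tags. Fold enrichment is the ratio of tags at the summit to the local background of the same library after the peak caller adds a pseudocount of 1 to both, so it is smaller than the plain ratio.

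Sequences under the c-MYC peaks of NR1D2 and PER2 are shown first, from GRCh38 and on the strand of the gene, with CACGTG E-boxes and 8-base D-boxes in capitals. The stretch in intron 1 of NR1D2, at chr3:23945847-23946031 on the plus strand and 561 to 745 bp downstream of the TSS, held 3 E-boxes with a D-box between the first and the second.

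NR1D2 E-box stretch: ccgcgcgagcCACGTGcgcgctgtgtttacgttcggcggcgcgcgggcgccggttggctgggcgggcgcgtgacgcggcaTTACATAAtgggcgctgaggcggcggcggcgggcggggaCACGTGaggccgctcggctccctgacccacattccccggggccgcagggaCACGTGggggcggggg

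Only the DMSO peak reached this stretch. The part of NR1D2 that a peak covered in all 3 c-MYC lists lies just before it, at chr3:23945577-23945702, and contained no E-box among its 126 bases, of which 73.8% were G or C.

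NR1D2 shared by 3 peaks: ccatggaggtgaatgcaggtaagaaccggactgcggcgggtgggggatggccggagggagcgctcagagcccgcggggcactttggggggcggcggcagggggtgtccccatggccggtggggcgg

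The PER2 promoter stretch covered in both DMSO and trametinib, at chr2:238288931-238289161 on the minus strand, held no E-box and ended in a D-box.

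PER2 shared by DMSO and trametinib: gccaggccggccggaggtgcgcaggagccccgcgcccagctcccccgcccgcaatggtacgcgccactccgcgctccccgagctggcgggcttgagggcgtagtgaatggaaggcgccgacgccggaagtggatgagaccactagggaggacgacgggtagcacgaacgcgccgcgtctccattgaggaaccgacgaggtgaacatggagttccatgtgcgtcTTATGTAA

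The E-boxes that no peak covered are shown for PER1, which had 4 E-boxes and no peak in any list, and for PER2 and BHLHE40, whose peaks lay beside their E-box. Each run has 12 bases on either side of the motif.

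PER1 first E-box: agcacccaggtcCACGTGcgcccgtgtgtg
PER1 second E-box: acccaccggtcaCACGTGgacccttaactg
PER1 far E-box: cggcccctctctCACGTGtatctctcccgc
PER1 farthest E-box: tgagaccgccggCACGTGtaccctacagct
PER2 E-box: caaaaattgcaaCACGTGgtctcaaaaata
BHLHE40 E-box: agcgttgtccaaCACGTGagactcatgtga

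NR1D2 was the single clock gene with a c-MYC promoter peak under all 3 treatments. PER2 had a promoter peak in DMSO and trametinib, BHLHE40 in DMSO alone, and PER3 and CRY2 in AMG510 alone. CLOCK, PER1, CRY1, NR1D1 and DBP had no promoter peak in any list, and the IgG list had none at any of the 10 genes.

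By count, 0 of 10 clock genes had a promoter peak in IgG, where 0.594% of all protein-coding genes did. In DMSO 3 of 10 did, against 24.2% of all genes. The AMG510 list also gave 3 of 10, against 15.3%. Trametinib gave 2 of 10, against 11.8%. With so few genes a single one moves the share by 10%, and each of these counts lies within 2 genes of the background. Promoter peaks in all 3 c-MYC lists were found at 1 of 10 clock genes and at 5.59% of all genes, and in at least 1 of the lists at 5 of 10 and at 31.7%.

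Genes that carry CACGTG within 1 kb of a coding TSS had promoter peaks more often than all genes in each list. Of these 8092 genes, 0.729% had a promoter peak in IgG, 32.7% in DMSO, 20.6% under AMG510 and 16.5% under trametinib. The IgG control thus went the same way. A gene with more coding starts has more chances of both an E-box and a peak, and the part of this was not tested. The 8 clock genes with such an E-box had 0, 3, 2 and 2 promoter peak genes in that order. As shares these are 0, 37.5, 25 and 25%, and 1 gene more or less moves them by more than their distance from the background.

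**Figure D1:**
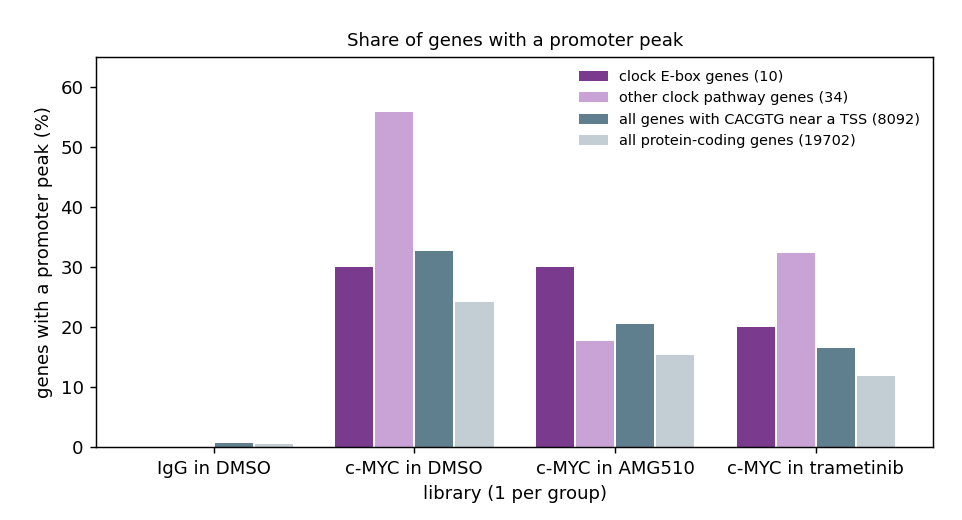
Share of genes with a promoter peak (vertical axis, percent) in each of the 4 libraries, for the 10 clock E-box genes, 34 other clock pathway genes, the 8092 genes with CACGTG near a TSS and all 19702 protein-coding genes. The clock E-box genes stand at 0, 30, 30 and 20%, where 1 gene is 10%, and there are no error bars because each group had 1 library.

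With the wider window, which also takes peaks in the gene body and the 10 kb on either side, IgG still gave 0 of 10, against 7.94% of all genes. DMSO stayed at the same 3 genes, against 38.9%. AMG510 rose to 5 genes with CRY1 and DBP added, against 33.8%, and trametinib to 4 with CLOCK and NR1D1 added, against 23%. A long gene offers a wider target, and the part of gene length in these counts was not tested. CLOCK at 119007 bp and CRY1 at 102186 bp are longer than 85.1% and 82.2% of all genes. NR1D1 at 7797 bp and DBP at 7350 bp are longer than 20.8% and 19.8%.

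**Figure D2:**
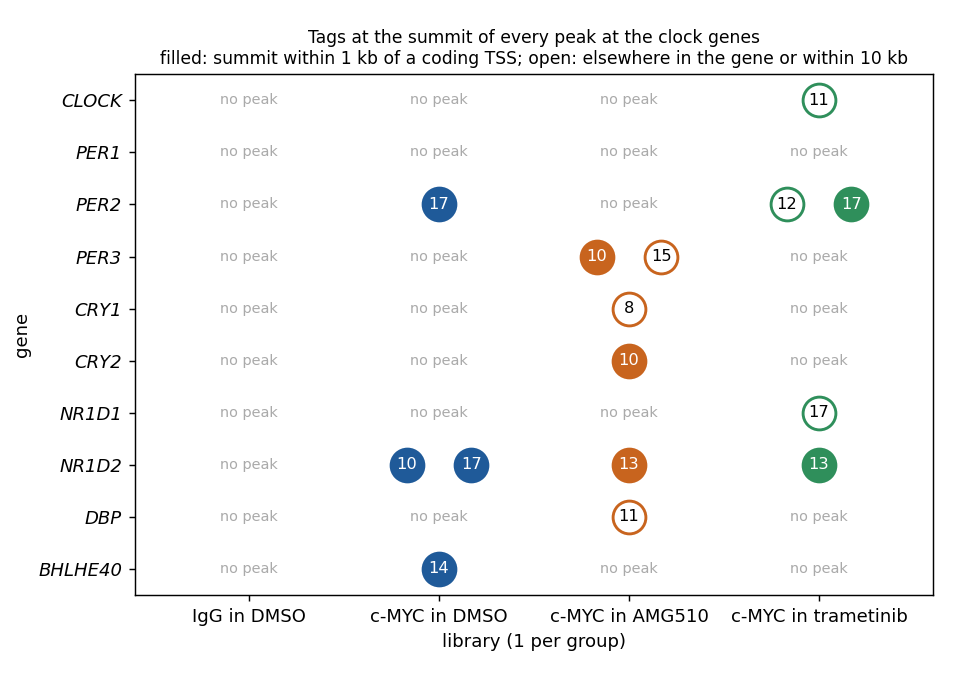
Tags at the summit (the number in each circle) of every peak at the 10 clock genes (rows) in the 4 libraries (columns). Filled circles are promoter peaks and open circles lie elsewhere in the gene or within 10 kb, and the counts run from 8 to 17 with no peak at all in the IgG column.

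Among the activators of the loop, CLOCK, the histone acetyltransferase that pairs with BMAL1, had a single peak. It was in trametinib, at chr4:55539226-55539403 in intron 1, 7608 bp from the canonical TSS, with 11 tags (5.49 to 19.7) and 4.80-fold enrichment. The other 3 libraries had no peak there, and the nearest c-MYC summit to the CLOCK TSS was 200175 bp away in DMSO and 200466 bp in AMG510. No E-box lay within 1 kb of its canonical TSS, and the one found near another CLOCK start was in no peak.

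PER1, an early-induced member of the PER family, had no peak in the gene or within 10 kb in any library. Its nearest summit was 74610 bp from the canonical TSS in IgG, 21093 bp in DMSO, 96986 bp in AMG510 and 20937 bp in trametinib. PER1 and NR1D2 had the most E-boxes of the 10 genes, with 4 each within 1 kb of a coding TSS. The E-boxes of PER1 named first and second above, starting at chr17:8152572 and chr17:8153007, lay 142 and 577 bp upstream of their nearest start, and those named far and farthest, at chr17:8156539 and chr17:8156723, 139 and 323 bp upstream of theirs. PER1 has 7 coding starts, the most of the 10 genes.

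PER2, the PER protein that scaffolds the repressor complex, had promoter peaks in DMSO and trametinib at almost the same position. In DMSO the peak at chr2:238288931-238289173 held 17 tags (9.90 to 27.2) with 5.05-fold enrichment, above 66.2% of its list. In trametinib the peak at chr2:238288861-238289161 also held 17 tags, with 5.68-fold enrichment, above 85.9% of its list. AMG510 and IgG had no peak within 10 kb.

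The PER2 summits were 34 bp apart, 192 bp and 158 bp upstream of the nearest coding TSS, and the peaks shared 231 bp. The PER2 E-box, at chr2:238289459-238289464, lay 441 bp from the DMSO summit and 286 bp past the edge of the peak, and 475 bp and 298 bp away in trametinib. The D-box TTATGTAA, a site for DBP and its relatives, formed the edge of the DMSO peak nearest the TSS, 80 bp from its summit, and lay 46 bp from the trametinib summit. Trametinib also had a peak of 12 tags (6.20 to 21.0) at chr2:238239417-238239579, downstream of PER2. That peak was 133 bp from the nearest coding TSS, which belongs to HES6, a basic helix-loop-helix factor, and 49072 bp from the TSS of PER2.

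PER3, the PER protein not required for rhythms in mice, had peaks in AMG510 alone. The promoter peak at chr1:7784364-7784579 was 111 bp downstream of the canonical TSS in intron 1, with 10 tags (4.80 to 18.4) and 3.46-fold enrichment, above 5.51% of its list. It was thus among the weakest peaks called in AMG510. A second AMG510 peak, at chr1:7845654-7845839 just beyond the end of the gene, was stronger, with 15 tags (8.40 to 24.7), 5.61-fold enrichment and 90.0% of the list below it. The nearest coding TSS to it was that of UTS2, 7291 bp away. The 2 E-boxes of PER3 lay upstream, and the nearer was 476 bp from the promoter peak's summit.

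CRY1 and CRY2, the cryptochromes that block CLOCK and BMAL1 most directly, had 1 peak each, both in AMG510. The CRY2 peak at chr11:45847591-45847747 was a promoter peak in coding exon 1, 157 bp downstream of the TSS, with 10 tags (4.80 to 18.4) and 4.55-fold enrichment. CRY1 had its peak at chr12:106995090-106995261 in intron 10, with 8 tags (3.45 to 15.8) and 3.73-fold enrichment. That summit was 98339 bp from the canonical TSS but 2329 bp from the start of another coding transcript. Neither gene has CACGTG within 1 kb of a coding TSS, so the name E-box genes in its canonical form covers 8 of the 10.

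NR1D2, the gene of REV-ERBβ, had 4 promoter peaks over the 3 c-MYC lists, and its only coding TSS lies at chr3:23945286. In DMSO a weak peak at chr3:23945181-23945384 sat 74 bp upstream of the TSS with 10 tags (4.80 to 18.4) and 3.31-fold enrichment, above 2.63% of the list. A second, wider DMSO peak at chr3:23945573-23946121 had its summit 407 bp downstream, in intron 1, with 17 tags (9.90 to 27.2), 5.45-fold enrichment and 78.2% of the list below it. By fold enrichment the DMSO list thus held the strongest and the weakest of the NR1D2 peaks. By rank within its own list, the AMG510 peak described next stood higher than the wide DMSO peak.

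In AMG510 NR1D2 had a peak at chr3:23945577-23945738 with its summit 383 bp downstream, 13 tags (6.92 to 22.2) and 5.22-fold enrichment, above 82.4% of the list. In trametinib the peak at chr3:23945295-23945702 had its summit 109 bp downstream in the 5′ UTR, with 13 tags as well and 5.10-fold enrichment, above 71.5% of the list. Tag intervals of all these peaks overlap. The IgG library had no peak closer than 209099 bp.

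The NR1D2 peaks differed in where they sat. The AMG510 peak lay inside the wide DMSO peak over 162 bp with summits 24 bp apart, while the trametinib peak bridged both DMSO peaks, overlapping them by 90 and 130 bp. The wide DMSO peak spanned 549 bp and was the only one to reach the 3 E-boxes shown above, which lay 164, 273 and 323 bp from its summit with starts 109 and 50 bp apart. The same E-boxes lay 119, 228 and 278 bp past the edge of the AMG510 peak and 155, 264 and 314 bp past that of trametinib. Peaks with 3 or more E-boxes numbered 24 in the DMSO list, 0.251% of it. The widths of peaks differ between lists, with medians of 241 bp for DMSO, 186 bp for AMG510 and 202 bp for trametinib, and the part of this in the reach of the NR1D2 peaks was not tested.

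**Figure D3:**
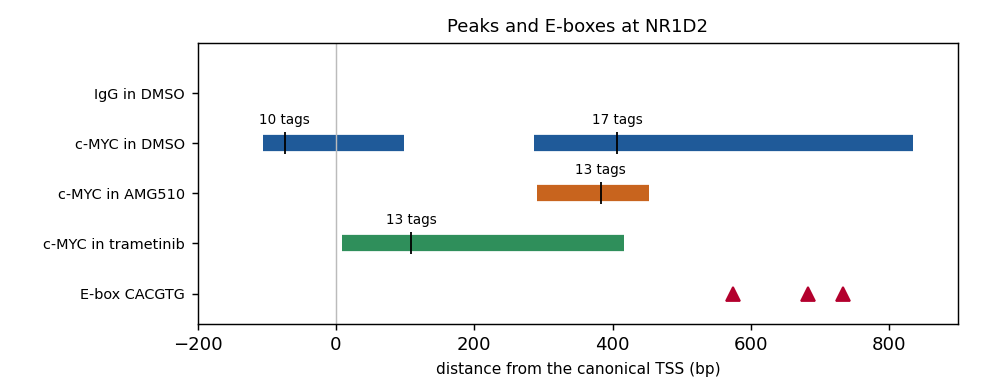
Peaks (bars, with a tick and the tag count at each summit) and E-boxes (triangles) at NR1D2, by distance from the canonical TSS in bp, with 1 row for each library. The wide DMSO bar alone covers the 3 E-boxes, and the IgG row holds no bar.

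NR1D1, the gene of REV-ERBα, showed another pattern. Its single peak, in trametinib, held 17 tags (9.90 to 27.2) with 5.27-fold enrichment, above 77.8% of the list. It lay in the gene body, beyond the 1 kb limit around the only coding TSS, and so was no promoter peak. DMSO had no summit within 31437 bp of the NR1D1 TSS and AMG510 none within 12900 bp. The 1 kb limit thus fell between BHLHE40, whose summit at 927 bp was the farthest inside it, and the summits of NR1D1 and then CRY1, the nearest outside.

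DBP, the D-box activator whose own E-boxes are classical CLOCK targets, had no promoter peak. AMG510 had a peak of 11 tags (5.49 to 19.7) and 3.61-fold enrichment at chr19:48629489-48629735, beyond the end of the gene and above 9.66% of its list. The nearest coding TSS to it was that of SPHK2, a sphingosine kinase, 4650 bp away. All 3 of the E-boxes near DBP starts were free of peaks, the closest of them 4050 bp from this summit.

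BHLHE40, which competes for E-boxes, had a peak in DMSO alone, at chr3:4978436-4978624. It held 14 tags (7.65 to 23.5) with 4.45-fold enrichment, above 44.0% of its list, and its summit lay 927 bp upstream of the TSS. The E-box 245 bp upstream of the TSS, shown above, was 682 bp from that summit, and another CACGTG at chr3:4978328 was 177 bp from it on the far side. AMG510 and trametinib had no summit within 397130 bp and 1087941 bp of the BHLHE40 TSS.

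**Figure D4:**
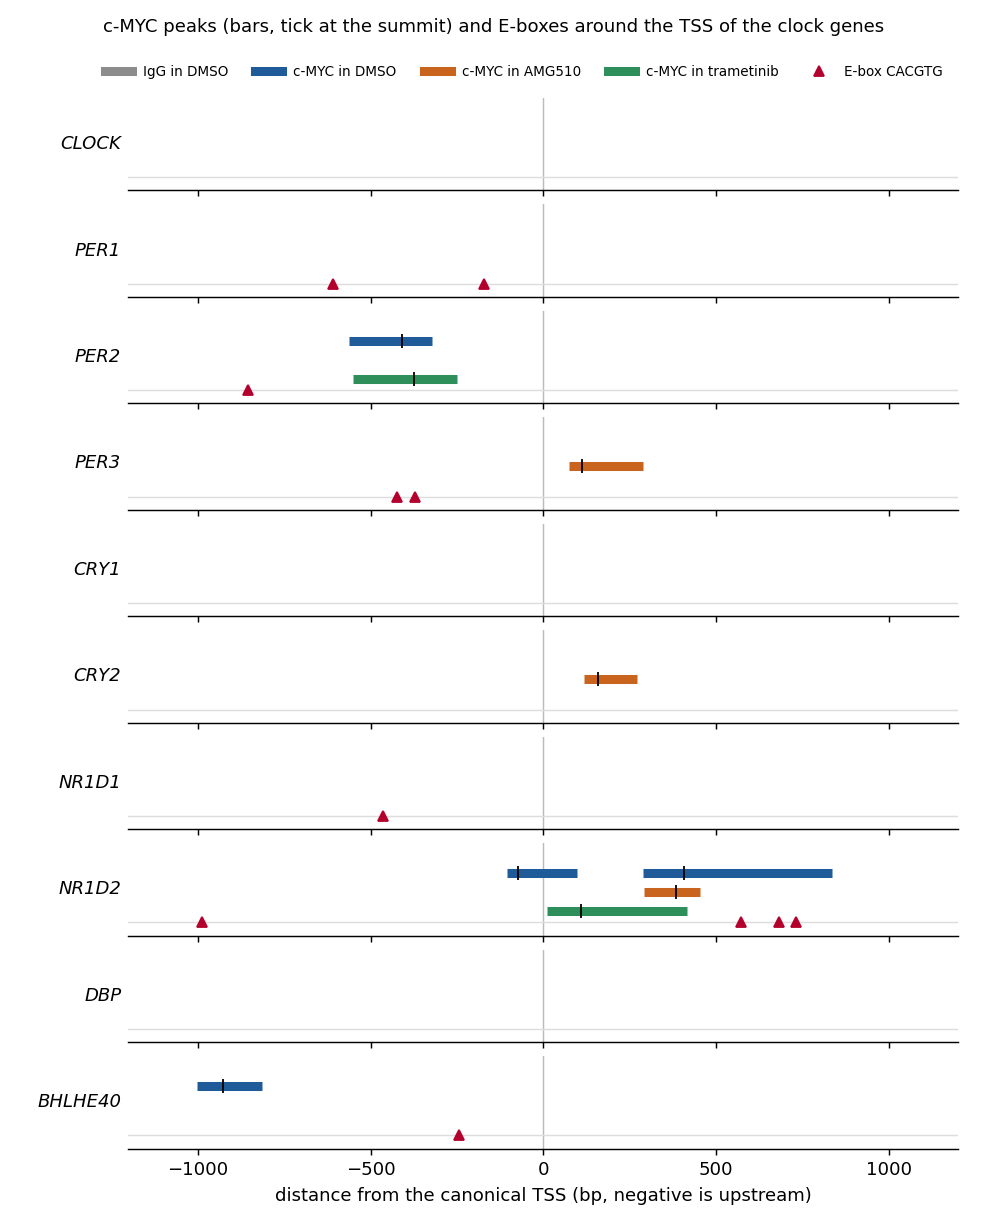
Peaks (bars, tick at the summit) and E-boxes (triangles) around the canonical TSS of each of the 10 clock genes, by distance in bp with negative values upstream. E-boxes are those within 1 kb of a coding TSS, and apart from the 3 under the wide DMSO bar of NR1D2, every triangle drawn lies outside the bars. The panels end little beyond 1 kb, so the E-boxes of CLOCK and DBP and those of PER1 named far and farthest are not drawn.

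Of the 4 DMSO promoter peaks at clock genes, 0 were overlapped by an IgG peak, 1 by an AMG510 peak and 3 by a trametinib peak. Over all 4621 DMSO promoter peaks the shares were 0.26%, 33.2% and 27.7%. The 3 overlapped by trametinib were the PER2 peak and both NR1D2 peaks, which share 1 trametinib peak, so they come from 2 genes.

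At these depths, presence in one list and absence in another could not be told apart from counting error where the missed site lay just below the limit. A pileup of 8 tags already reached the threshold at the lowest background in DMSO and trametinib and 7 tags in AMG510. At a background like that under the PER2 peak of DMSO, the lowest pileup called in AMG510 was 9 tags, and the same 9 applied to NR1D1 in DMSO and AMG510 and to BHLHE40 in AMG510 and trametinib. A site just missed in AMG510 could therefore hold 8 tags, with an interval of 3.45 to 15.8 that overlaps the 9.90 to 27.2 around 17 tags. Peaks of 10 tags, as at PER3 and CRY2, were closer still to the limit. Tags at sites with no peak were not analysed here.

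**Figure D5:**
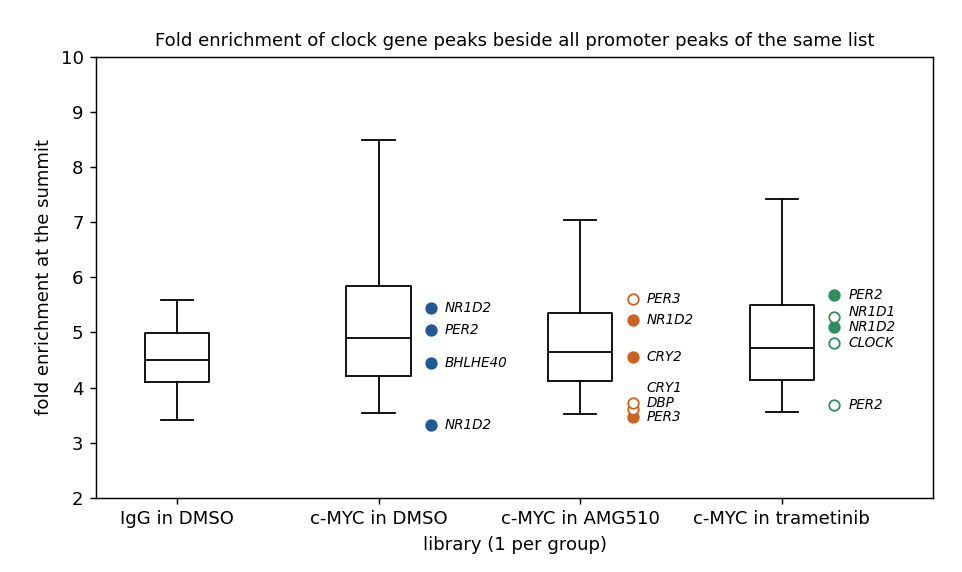
Fold enrichment at the summit (vertical axis, starting at 2) of the clock gene peaks (points, filled for promoter peaks) beside all promoter peaks of the same library (box from the lower to the upper quartile with the median, whiskers at the 5th and 95th percentiles). The clock gene peaks run from 3.31 to 5.68, within or just under the whiskers of each library.

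In strength the clock gene peaks lay among the other promoter peaks of their lists. The DMSO promoter peaks had a median fold enrichment of 4.90, those of AMG510 4.64 and those of trametinib 4.71. The strongest clock gene peaks were 5.45 at NR1D2, 5.61 beyond PER3 and 5.68 at PER2 in that order. Measured from the canonical TSS, the nearest summit lay at a median of 26.3 kb for the clock genes in DMSO and 50.01 kb for all genes. In AMG510 the medians were 48.9 and 62.0 kb, in trametinib 19.6 and 117 kb, and in IgG 558 and 354 kb.

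The E-box itself was common at these genes, which were listed as E-box genes, so its share is partly built into the list. CACGTG, which reads the same on both strands, was present within 1 kb of a coding TSS at 8 of the 10 clock genes and at 41.1% of all genes, and within 1 kb of the canonical TSS at 6 of 10 and 29.2%. Together, 17 E-boxes lay within 1 kb of a coding TSS at these 8 genes, and 3 of them were inside a c-MYC peak, all at NR1D2 in DMSO. No promoter peak of a clock gene had CACGTG within 100 bp of its summit, out of 4 DMSO, 3 AMG510 and 2 trametinib peaks. Among all promoter peaks the shares with CACGTG that close were 16.9%, 14.4% and 17.3%, and 4.39% in IgG, so 0 of so few peaks is near what the lists as a whole show.

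Other motifs were counted on both strands within 1 kb of the canonical TSS. The variant E-box CACGCG was found at 6 of 10 clock genes and 41.5% of all genes, and the variant CACGTT at 7 of 10 and 33.1%. The D-box TTATGTAA was found at PER2, PER3 and NR1D2, 3 of 10, against 5.42% of all genes. The core TAGGTCA of the element read by REV-ERB and ROR receptors was found at PER3, CRY2, NR1D2 and DBP, 4 of 10, against 11.1%. Of the D-boxes, the one at PER2 was inside the DMSO and trametinib peaks and the one at NR1D2 inside the wide DMSO peak. These are matches of letters and not measured sites. In the shorter promoter windows of RefSeq on GRCh38, 300 bases around each start, all 10 genes matched with 14 windows, and 3 windows held CACGTG, at BHLHE40, NR1D2 and PER1, against 7.26% of 35116 windows.

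The proteins around the loop were examined as a list of 34 other clock pathway genes. Promoter peaks were found at 0 of them in IgG, 19 in DMSO (55.9%), 6 in AMG510 (17.6%) and 11 in trametinib (32.4%), beside the shares of all genes given above. At 4 genes, CSNK1E, GSK3B, FBXW11 and WDR5, promoter peaks were in all 3 c-MYC lists. The list holds general kinases and cofactors that act far beyond the clock, and it was drawn up with results of these data known, so its counts are a description. In the wider window the counts were 2 in IgG (5.88%), 24 in DMSO (70.6%), 16 under AMG510 (47.1%) and 17 under trametinib (50%), where all genes gave 7.94, 38.9, 33.8 and 23%.

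Of the kinases that phosphorylate clock proteins, the casein kinase 1 genes had the most tags, and CSNK1E had the highest fold enrichment of the pathway list. CSNK1E, casein kinase 1 epsilon, had 41 tags in DMSO with 9.51-fold enrichment, above 98.2% of the list, 12 tags in AMG510 with 3.79-fold and 19 tags in trametinib with 5.98-fold. CSNK1D, casein kinase 1 delta, had 29 tags in DMSO with 6.34-fold and 21 in trametinib with 5.73-fold, and no promoter peak in AMG510. GSK3B, glycogen synthase kinase 3 beta, had 12 tags in DMSO, 12 in AMG510 and 12 and 14 in a pair of trametinib peaks, and CSNK2A1, a catalytic subunit of casein kinase 2, had 12 in DMSO. Both had lower enrichment in DMSO than the casein kinase 1 genes, at 3.65-fold for GSK3B and 4.02-fold for CSNK2A1. The casein kinase 1 genes were thus deepest in DMSO, above any peak at the 10 clock genes. The DMSO and AMG510 peaks of GSK3B shared no bases.

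In the ubiquitin system, FBXW11, the β-TrCP2 protein that recognises phosphorylated PER, had 18 tags in DMSO, 13 under AMG510 and 14 under trametinib. SIAH2, a ubiquitin ligase, had 21 in DMSO and 17 in AMG510. It had CACGTG within 100 bp of the DMSO summit but not of the AMG510 summit. Among chromatin cofactors, WDR5, a core subunit of MLL complexes that also binds c-MYC, had 17 and 24 tags in a pair of DMSO peaks, 14 in AMG510 and 15 in trametinib. WDR5 had CACGTG within 100 bp of the summit in each list, at the stronger of the DMSO peaks. KMT2A, an MLL methyltransferase, had 13 and 23 tags in DMSO, and the deeper peak, at 7.95-fold, was second to CSNK1E in the list. The acetyltransferases EP300 and CREBBP had 9 and 13 tags in DMSO and 10 and 12 in trametinib, the corepressor NCOR1 had 12 and 14, and the deacetylase SIRT1 had 11 in AMG510 and 9 in trametinib. The peaks of EP300 in its lists shared no bases, and nor did those of SIRT1. NONO, an RNA-binding partner of PER proteins, had 11 in DMSO.

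Among the transcription factors of the list and TIMELESS, promoter peaks occurred in DMSO alone. BMAL2 and NPAS2, relatives of BMAL1 and CLOCK, had 15 and 14 tags, TIMELESS, a replication fork protein that binds CRY, had 10, and TEF and HLF, relatives of DBP, had 15 each. NPAS2 and TEF had CACGTG within 100 bp of the summit. BMAL1, CIART, BHLHE41, NFIL3 and the ROR genes had no promoter peak. In the wider window DMSO also had peaks at BMAL1 and BHLHE41. There AMG510 had peaks at BMAL2, NPAS2, BHLHE41, RORA and RORB, and trametinib at NPAS2, BHLHE41, RORA and HLF. The limit on absence given above holds for these shallow promoter peaks too. Of the output enzymes, NOCT, the phosphatase nocturnin, had 11 tags in DMSO and 10 in trametinib, and NAMPT, which makes a precursor of NAD, had 15 and 19. The NAMPT peaks lay apart, at chr7:106284223-106284754 in DMSO and chr7:106285334-106285536 in trametinib. The NOCT peaks shared no bases either, so neither pair of counts compares a single site.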

How the data were processed

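ChIP-seq peak lists of 4 libraries from MIA PaCa-2 cells were used. Per the methods and the submitters' processing notes, the authors used Trimmomatic 0.39 for trimming, BWA 0.7.17 for alignment to GRCh38, SAMtools 1.9 for filtering, Picard for duplicates, bedtools 2.27.1 for conversion and MACS2 2.2.7.1 for calling at q 0.05 in each library, and dropped peaks in ENCODE exclusion regions. The deposited values are a score, the fold enrichment (a ratio to the local background), the −log10 p-value and the −log10 q-value. Whole tags at each summit were solved from the fold enrichment and p-value within 0.02 on the log10 p scale, which succeeded for 100% of peaks in each list. The solver was checked on values simulated from the same relation, which does not test whether the deposited values follow it. Library totals were estimated from the background rate, a genome size of 2700000000 bp and the narrowest peak taken as the fragment length.

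TSSs were taken from GENCODE 44, and promoters and E-boxes were counted over 19702 genes with Python 3.11.15, pandas 2.3.3, SciPy 1.17.1 and pysam 0.24.0. Peaks overlapped with at least 1 shared bp. Named genes were the 10 members, pathway genes with a c-MYC promoter peak, other transcription factors of the pathway list, and genes whose TSS was nearest to a member's peak. The members and lists were chosen with earlier results of these data known. What AMG510 inhibits and 1 peak sequence are not reported here. With 1 library per group, no test was made.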

Additional observations from a re-analysis of the deposited data

How the results depend on the processing

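Of 58 alternative values computed for 14 results, 45 stayed within 1.5 times the value reported and 13 moved. Requiring a score above 60 left 1 gene with a promoter peak in DMSO (NR1D2), 0 in AMG510 and 1 in trametinib (PER2), where 9.80%, 2.97% and 2.93% of all genes kept one, and 1, 0 and 1 genes in the wider window, against 14.2%, 4.88% and 4.75%. Requiring more than 5-fold enrichment left 1 AMG510 promoter gene (NR1D2), against 5.75% of all genes, and 2 in the wider window (PER3 and NR1D2), against 11.1%. A TSS window of 5 kb gave 5 genes in AMG510, against 18.7%. A flank of 50 kb gave 1 gene in IgG (PER3), against 15.6%, and 7 in DMSO, against 58.5%. Counting summits within 1 kb in place of shared bases raised the DMSO peaks matched in AMG510 from 1 to 2, and searching whole peaks raised DMSO promoter peaks with an E-box from 0 to 1. A score follows the q-value of its own library, so equal scores in 2 lists can stand for unequal enrichment. No paired analysis was possible because a single library stood for each group. The member peaks held 8 to 17 tags, beside 7 to 10 for the lowest pileup called in another c-MYC list at a like background, where there was one.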
